A study of Mus musculus with 4 samples.

Results

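The splicing factors described here are 3 large gene families and their closest partners: the SR proteins (Srsf genes), the heterogeneous nuclear ribonucleoproteins (Hnrnp genes), the SF3A and SF3B subunits of the U2 particle (Sf3a and Sf3b genes), the CLK kinases (Clk1 to Clk4) and the TRA2 proteins (Tra2a and Tra2b). Members were all probe sets annotated to exactly 1 gene symbol with 1 of these names. The rule found 137 of 45037 probe sets, which stood for 44 of 18193 genes: 33 probe sets of 10 Srsf genes, 58 of 19 Hnrnp genes, 30 of 9 Sf3 genes, 5 of 4 Clk genes and 11 of 2 Tra2 genes. Another 7 probe sets carried several symbols, 3 with Hnrnpa1 and 4 with Hnrnpa3, and were left out, so Hnrnpa3 is not analysed here. A probe set is a group of short probes that together read 1 stretch of a transcript, and several probe sets of a gene can read different stretches.

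Splicing removes introns from newly made RNA. SR proteins bind exons and recruit the splicing machinery, many hnRNP proteins bind RNA and often oppose them, and the SF3A and SF3B complexes anchor the U2 particle at the branch point of the intron. CLK kinases phosphorylate the arginine-serine stretches of SR proteins and so set their place and activity, and TRA2 proteins are SR-like activators of exons. Several of these genes regulate their own transcripts through alternative exons or introns. In heart muscle, alternative splicing shapes sarcomere and calcium handling proteins.

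The study used HL-1 cells, a mouse atrial muscle line that beats in culture, grown to confluence on coated coverslips. The 2 stimulated samples were paced electrically for 24 h at 300 beats per minute, per the labels 1.5 to 2 times the control rate. The 2 control samples contracted spontaneously. As the controls received no pulses at any rate, pacing as such and its speed cannot be told apart here. Total RNA of each sample was hybridised to 1 Affymetrix array. The labels number the experiments but do not say whether the 2 arrays of a group came from separate cultures. Every p-value below therefore rests on the spread among these 4 arrays, part of which may be technical.

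Levels are log2 values, and array medians lay between 4.95 and 5.01. Atrial muscle markers were present: all 10 passed the filter, with Myl7, an atrial myosin light chain, at 13.58 to 13.84 by group mean. Of these, Nppa rose and Gja5, Tbx5 and Ryr2 fell, and 9 of the 10 had a change below 0. Their summed level on the log2 scale was 15.51 and 15.52 on the control arrays and 15.25 and 15.48 on the stimulated arrays. Of the markers of other cells, 4 of 7 fibroblast, 2 of 6 endothelial and 4 of 5 leukocyte genes passed the filter level of 4.39. Those that passed include Col1a1 of fibroblasts, at 5.51 and 7.55 in controls 1 and 2 and 5.49 and 7.14 in stimulated 1 and 2. Egfl7 (endothelium, 7.55 to 7.94), and Csf1r (5.79 to 7.59) and Cd3e (6.33 to 6.44) of leukocytes also passed the filter. Col3a1, Lum, Cdh5, Pecam1 and Ptprc lay below it. Of 5 leukocyte markers, Cd68, a lysosomal protein of macrophages that other cells also make, rose from 4.39 to 6.46 by group mean. Its control mean, 4.386, lay just under the filter level of 4.389, so it was tested only through its stimulated arrays. Csf1r changed by 0.89, Cd3e by 0.07 and Adgre1 by -0.32, and none of these passed. The summed level of the 5 leukocyte markers was 7.52 and 8.20 in controls and 8.43 and 8.65 in stimulated cells. The summed level of 4 smooth muscle markers was 12.04 and 12.69 in controls and 12.86 and 13.31 in stimulated cells. These markers did not move alike: Tagln, the brightest, changed by 0.90 and Smtn by -0.60. Cnn1 overlapped between the groups and Myh11 lay below the filter. No smooth muscle marker passed. Of 3 ventricle markers, Myl2 read 9.79 in controls and 9.14 in stimulated cells by group mean. Myl3 changed by -0.13, neither passed, and Irx4 lay below the filter. The summed fibroblast and endothelial levels overlapped between the groups or were lower in stimulated cells, at 7.29 to 8.25 for 7 fibroblast markers and 8.19 to 8.46 for 6 endothelial ones. The part of these markers in the results below was not tested. In such bulk samples fewer cells of a type and less RNA per cell cannot be told apart.

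Few splicing factor probe sets passed the test between paced and control cells: 3 probe sets of 2 genes. Hnrnpu, which encodes a nuclear scaffold and RNA-binding protein, rose on 2 of its 5 probe sets, by up to 2.51-fold. Sf3b5, the smallest subunit of SF3B, fell by 0.72 on the log2 scale on 1 probe set, and its second tested probe set changed by -0.68. The 4 CLK kinase genes and both TRA2 genes had changes above 0 on every tested probe set, but none of these passed. Of all probe sets tested, 46.8% were above 0. Clk2 (0.03), Tra2b 1441466_at (0.04) and Tra2a 1455933_at (0.13) turned below 0 when 1 of the arrays was left out. For TRA2 the sign on every probe set depends in part on the filter, which left out 3 of 11 probe sets. Of those left out, Tra2a 1459753_x_at had a control mean of 3.91 and a stimulated mean of 3.87. Without a filter the Tra2 median change was 0.16, beside 0.30 with it. Among the tested probe sets, Tra2b 1444509_at reached the filter only through its stimulated arrays.

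Of the 137 probe sets, 125 reached the filter level (a mean over the 4 arrays at or above the 40th percentile), and they stood for 43 genes. The 12 others, among them the only probe set of Srsf12, were not tested. With limma and Benjamini-Hochberg adjustment over 27022 probe sets, 2 members were higher and 1 was lower at an adjusted p under 0.05. Among all probe sets tested, 2.46% were called higher and 1.38% lower, so the share of members called, 2.4% in both directions, lay near or below the 3.85% of the whole array. At an unadjusted p under 0.05, 16 members were higher and 4 lower, against 12% higher and 11.9% lower among all probe sets. With any 1 of the 4 arrays left out, 0 members were called, and the whole array gave only 7 to 114 calls. With 4 arrays the smallest two-sided p of an exact permutation test is 0.333, and none was run.

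Of the 125 probe sets, 80 changed upward in value and 45 downward, and 64% of members were above 0 against 46.8% of all probe sets. Both stimulated arrays lay above both control arrays for 47 members, or 37.6%, against 25.3% of all probe sets. They lay below both for 15 members, or 12%, against 28.8%. In all, 62 members did not overlap between the groups, or 49.6%, against 54.1% of all probe sets. The median change of the members was 0.06 on the log2 scale, beside -0.02 for all probe sets tested. It ranged from 0.04 to 0.11 with 1 array left out.

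**Figure D1:**
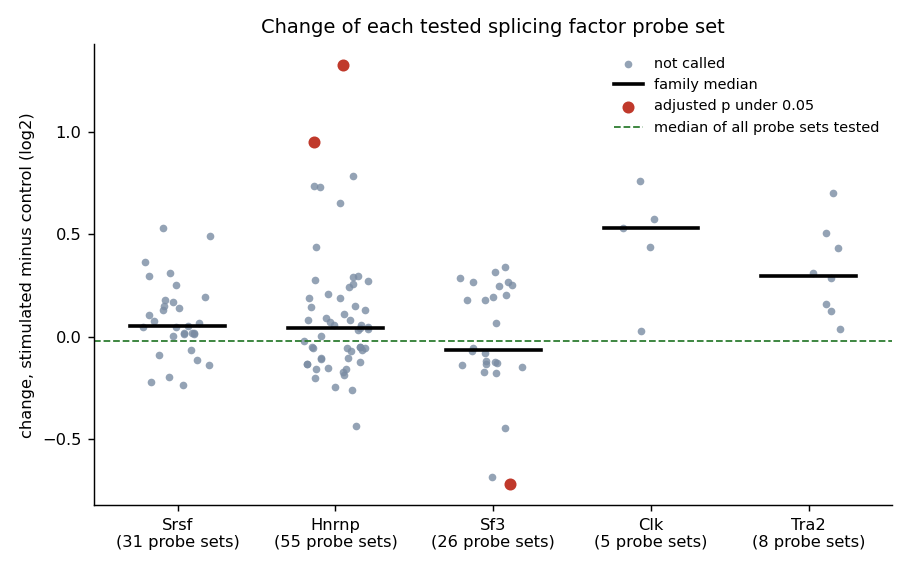
Change of each tested member probe set (stimulated minus control, log2, y axis) by gene family (x axis). Red points passed an adjusted p of 0.05, black bars are family medians and the dashed line is the median of all 27022 probe sets. The Clk median, 0.53, and the Tra2 median, 0.30, stand above those of the 3 larger families, which lie between -0.06 and 0.05.

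The families differed in their medians, which are given as a description. The median was 0.05 for 31 tested Srsf probe sets, 0.05 for 55 Hnrnp probe sets and -0.06 for 26 Sf3 probe sets. It was 0.53 for 5 Clk probe sets and 0.30 for 8 Tra2 probe sets. The Sf3 median changed sign, to between 0.0024 and 0.04, without control 1, without stimulated 1 or without stimulated 2. The Hnrnp median was 0.0012 without control 2. The Clk median was 0.37 without control 1 and 0.63 without control 2, and the Tra2 median lay between 0.31 and 0.36 over the 4 fits with 1 array left out. Changes past 0.5 in either direction were found in 14 of the 125 probe sets, against 4304 of all 27022 tested. Of the 14, 6 were Hnrnp, 3 Clk, 2 Sf3, 2 Tra2 and 1 Srsf.

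Counted once a gene, by its brightest probe set, 43 member genes were tested among 13058. Hnrnph3 was called higher and Sf3b5 lower, against 3.91% of all genes called higher and 1.62% lower. Hnrnpu was not called in this count, because its brightest probe set is 1 of the 3 that did not pass. Both stimulated arrays lay above both controls in 19 of the 43 genes and below in 5, against 27.6% and 27.7% of all genes. The median change per gene was -0.06 for 19 Hnrnp genes, 0.05 for 9 Srsf genes and 0.18 for 9 Sf3 genes. So the sign of the Hnrnp and Sf3 medians turned with the choice of probe sets.

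Hnrnpu, also called scaffold attachment factor A, binds RNA and chromatin and takes part in splicing and in the attachment of Xist RNA. Probe set 1434390_at read 7.673 and 8.004 in controls and 9.17 and 9.16 in stimulated cells. Probe set 1434391_at read 8.39 and 8.14 in controls and 9.23 and 9.20 in stimulated cells. On both probe sets the stimulated arrays agreed closely with each other and lay clear of the controls. The rises were 1.33 ± 0.16 (SE) with adjusted p = 0.0253, and 0.95 ± 0.14 with adjusted p = 0.0339, by limma. The annotation gives both of these probe sets the same source sequence, so they are not independent readings.

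The other 3 Hnrnpu probe sets did not pass. Probe set 1423051_at read 11.90 and 12.08 in controls and 11.87 and 11.80 in stimulated cells, a change of -0.16 ± 0.13. Probe set 1450849_at read 11.14 and 11.13 against 10.94 and 10.98, a change of -0.17 ± 0.12. In both of these the stimulated arrays lay just below the controls. Probe set 1423050_s_at read 10.57 and 10.28 against 10.35 on both stimulated arrays, which lay between the controls. Adjusted p for these 3 lay between 0.468 and 0.831.

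Whether probe sets of 1 gene changed unequally was tested on their difference within each array. Each other probe set of a gene was compared with the brightest one, over 10226 pairs of 5978 genes. The difference between 1434390_at and 1423051_at was -4.23 and -4.07 in controls and -2.70 and -2.63 in stimulated cells. It thus moved by 1.48 ± 0.15, with adjusted p = 0.0529 (limma), just short of the threshold. The pair with 1434391_at moved by 1.11 ± 0.18 (adjusted p = 0.106). The pair of 1434390_at passed by limma without a filter on low values (adjusted p = 0.023). It also passed without the probe sets whose names end in _x_at or _s_at (adjusted p = 0.0352). Pairs called over the whole array were 7 in the reported fit, 38 without a filter and 13 without those probe sets. The same pair did not pass with the 60th percentile filter (adjusted p = 0.103), an intensity trend (0.0562) or a robust prior (0.0543). With 1 array left out its difference moved by 1.40 to 1.56.

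**Figure D2:**
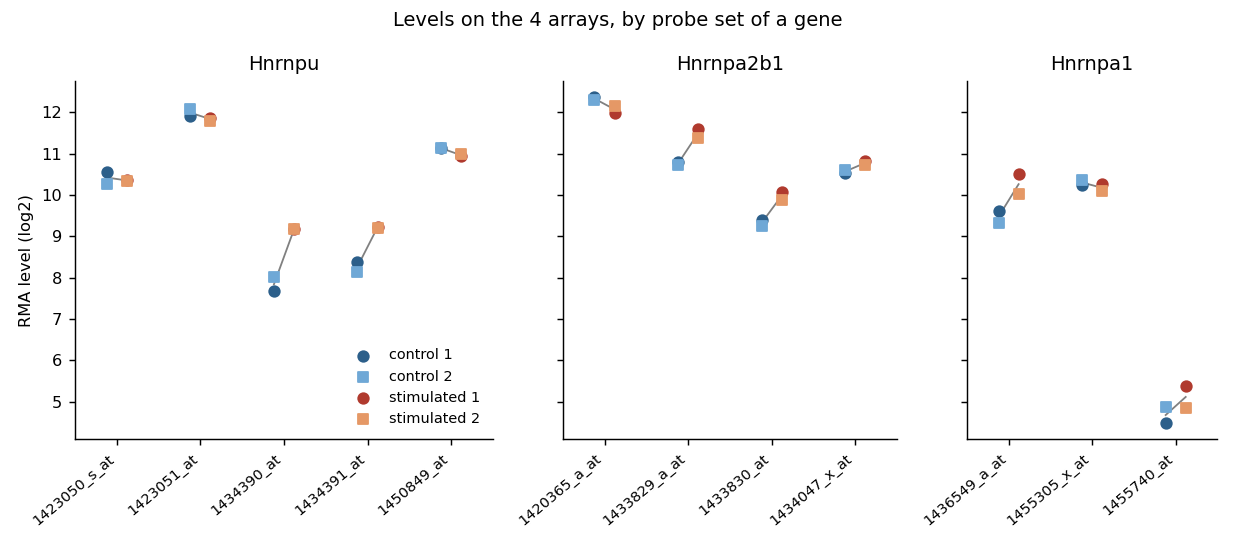
RMA level (log2, y axis) on each of the 4 arrays for every tested probe set of Hnrnpu, Hnrnpa2b1 and Hnrnpa1 (x axis), with grey lines joining group means. Levels of different probe sets are not comparable, only their changes. In Hnrnpu, 1434390_at and 1434391_at rose, while the other 3 changed by -0.17 to -0.07.

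In all, 0 of 82 member pairs passed this test by limma, and 11 had an unadjusted p under 0.05. Among all pairs 0.0685% passed and 15.2% had an unadjusted p under 0.05, against 13.4% of member pairs at the latter threshold. A difference over 0.5 was found in 7 member pairs, or 8.54%, against 11.4% of all pairs. Of the 32 member genes with more than 1 tested probe set, 6 had changes that spanned over 0.5, or 18.8%, against 19.5% of all 5978 such genes. These were Hnrnpu, Hnrnpa2b1, Hnrnpa1, Hnrnpr, Tra2a and Hnrnpd.

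Hnrnpa2b1 and Hnrnpa1 encode the abundant A/B type hnRNP proteins, which bind exons, introns and telomeric repeats. Hnrnpa2b1 probe set 1433829_a_at read 10.79 and 10.73 in controls and 11.60 and 11.38 in stimulated cells (0.73 ± 0.14, adjusted p = 0.0502). Probe set 1433830_at, from the same source sequence, read 9.39 and 9.26 against 10.08 and 9.88 (0.66 ± 0.14, adjusted p = 0.062). On both, the stimulated arrays lay above the controls. The brightest probe set, 1420365_a_at, lay below the controls instead, at 12.36 and 12.30 against 11.98 and 12.16 (-0.26 ± 0.13). The fourth, 1434047_x_at, changed by 0.21 ± 0.13. The pair of 1433829_a_at and 1420365_a_at moved by 0.99 ± 0.18 (adjusted p = 0.113).

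Hnrnpa1, looked at after its values were seen, was split in a similar way. Probe set 1436549_a_at read 9.62 and 9.33 in controls and 10.51 and 10.01 in stimulated cells (0.79 ± 0.21, adjusted p = 0.0913). Probe set 1455305_x_at read 10.25 and 10.35 against 10.26 and 10.09, and its groups overlapped. Probe set 1455740_at, from the same source sequence as the first, changed by 0.44 ± 0.22, and its groups overlapped too. The difference between the first and 1455305_x_at moved by 0.92 ± 0.20 (adjusted p = 0.143). Hnrnpa1 has processed pseudogenes, and the 3 probe sets left out for several symbols each name a pseudogene beside it, so its probe sets may read more than 1 locus. Hnrnpr, also named after its values were seen, ranged from -0.43 on 1452030_a_at to 0.28 on 1438807_at, and neither passed.

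**Figure D3:**
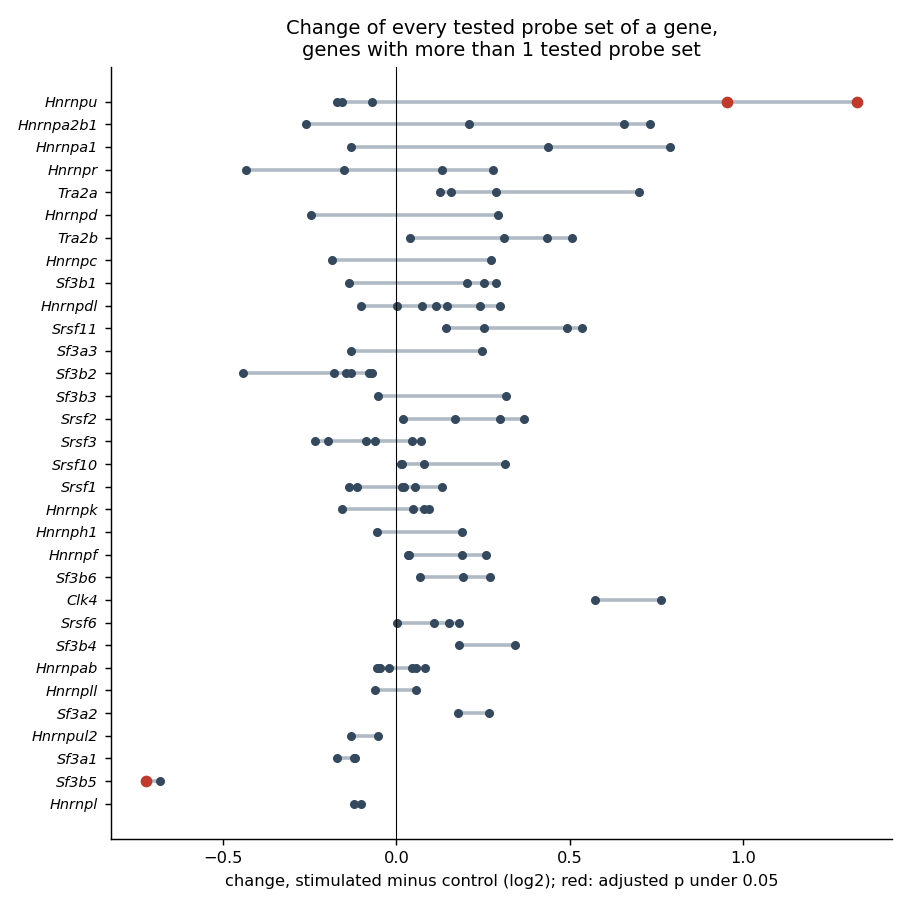
Change (stimulated minus control, log2, x axis) of every tested probe set of the 32 member genes with more than 1, ordered by the span between the lowest and highest. Hnrnpu spans 1.50 and Hnrnpl 0.02, and the 2 Sf3b5 probe sets lie together at the left.

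Hnrnph3, an hnRNP of the F/H type that binds runs of guanine, had 1 probe set. It read 7.44 and 7.51 in controls and 8.09 and 8.34 in stimulated cells, with no overlap. Its change was 0.74 ± 0.14 with adjusted p = 0.0517 over all probe sets, and adjusted p = 0.0435 over all genes, by limma. With 1 array left out the change stayed between 0.61 and 0.86 and did not pass. Its relatives Hnrnph1, Hnrnph2 and Hnrnpf changed by -0.20 to 0.26 over 7 probe sets, and none passed.

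Among the other hnRNP genes named by p, Hnrnpd (AUF1, a regulator of unstable transcripts) differed by 0.29 on 1425142_a_at and -0.25 on 1457568_at. Hnrnpdl, its close relative, ranged from -0.10 to 0.30 over 7 probe sets. Hnrnpc, which binds runs of uridine, changed by 0.27 and -0.18. Hnrnpk, Hnrnpl, Hnrnpll, Hnrnpm, Hnrnpab, Hnrnpul1 and Hnrnpul2 stayed between -0.16 and 0.15 on all their tested probe sets. None of these genes passed.

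Sf3b5 holds the SF3B core together beside Sf3b1 and Sf3b3. Its probe set 1451185_at read 11.55 on both control arrays and 10.75 and 10.90 in stimulated cells. Probe set 1437972_s_at read 11.74 and 11.84 against 11.00 and 11.21. On both, each stimulated array lay below each control. The changes were -0.72 ± 0.13 (adjusted p = 0.0456), or 1.65-fold lower, and -0.68 ± 0.14 (adjusted p = 0.0557). The third probe set lay below the filter. The call was lost with arrays centred on their medians (adjusted p = 0.0504) and without a filter (adjusted p = 0.0516).

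No other subunit of SF3A or SF3B passed. Sf3b1, the largest subunit, which clasps the branch point, changed by 0.29 ± 0.13 on its brightest probe set and by -0.14 to 0.25 on 3 others. Sf3b4, which touches the RNA upstream of the branch point, changed by 0.34 ± 0.13 (adjusted p = 0.189) and 0.18. Sf3b6, the branch point adenosine contact protein p14, changed by 0.07 to 0.27 on 3 probe sets. Sf3b2 was below 0 on all 6 tested probe sets, from -0.44 to -0.07, and is named here after its values were seen; 2 of the 6 turned above 0 with 1 array left out. Its lowest, 1429362_a_at, read 9.35 and 9.60 in controls and 9.04 on both stimulated arrays (adjusted p = 0.135). Sf3a1, Sf3a2, Sf3a3 and Sf3b3 ranged from -0.17 to 0.32. Of the 26 tested Sf3 probe sets, 12 were above 0 and 14 below.

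Of the CLK kinases, Clk4 differed most. Its probe set 1422886_a_at read 7.70 and 7.89 in controls and 8.44 and 8.68 in stimulated cells (0.76 ± 0.15, adjusted p = 0.0525). Its probe set 1427663_a_at read 7.90 and 8.01 against 8.41 and 8.65 (0.57 ± 0.14, adjusted p = 0.0845). Both stimulated arrays lay above both controls on each. Clk1 read 9.40 and 9.73 against 10.07 and 10.12 (0.53 ± 0.16, adjusted p = 0.112). Clk3 read 7.96 and 8.12 against 8.45 and 8.51 (0.44 ± 0.13, adjusted p = 0.12). The groups did not overlap in Clk1 and Clk3 either. Clk2 differed from this pattern, at 8.65 and 8.66 against 8.79 and 8.58, with a change of 0.03 ± 0.14. None of the 5 Clk probe sets passed by limma. An unadjusted p under 0.05 was found in 4, or 80%, against 23.9% of all probe sets. The groups did not overlap in 4, or 80%, against 54.1% of all probe sets. The Clk4 probe set 1422886_a_at passed by limma with the 60th percentile filter (adjusted p = 0.0394) and with a robust prior variance (adjusted p = 0.0496). In these 2 settings calls over the whole array rose from 1039 to 1480 and 1221. This probe set did not pass without a filter (adjusted p = 0.0627), with arrays centred on their medians (0.0562) or with an intensity trend (0.0506). With 1 array left out its change was 0.64 to 0.88.

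**Figure D4:**
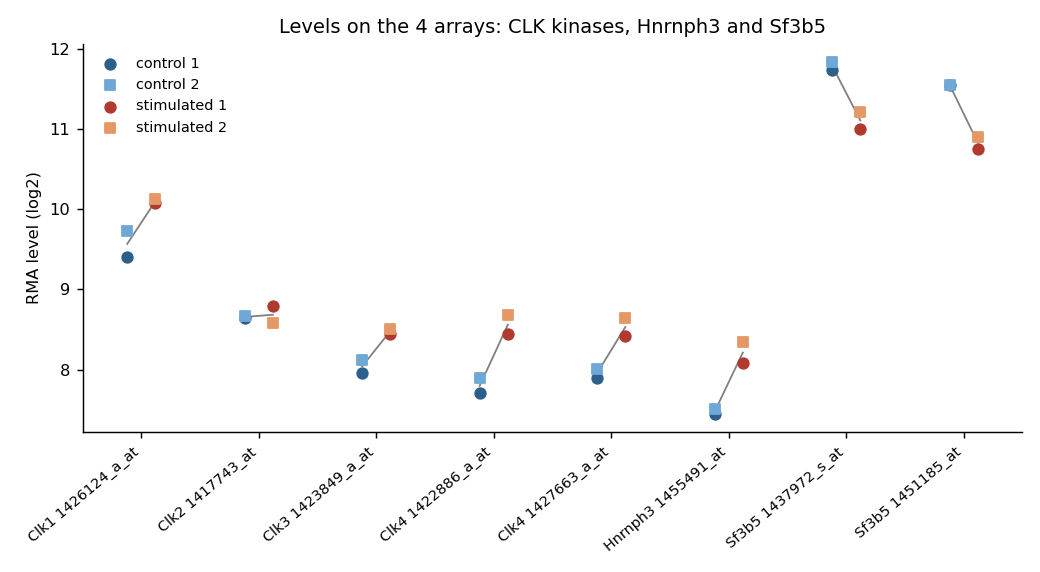
RMA level (log2, y axis) on each array for the tested probe sets of the CLK kinases, Hnrnph3 and Sf3b5 (x axis), with grey lines joining group means. The groups are separate in all but Clk2, as they are in 54.1% of all probe sets tested. Sf3b5 is lower in stimulated cells, by 0.68 and 0.72.

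Of the TRA2 genes, Tra2b read 10.46 and 10.48 in controls and 10.89 and 10.91 in stimulated cells on 1419543_a_at (0.43 ± 0.12, adjusted p = 0.107). On 1427432_a_at it read 10.96 and 11.05 against 11.38 and 11.25 (0.31 ± 0.13). In both, replicates were closer to each other than the groups were. Tra2a ranged from 0.13 to 0.70 over 4 tested probe sets, with the highest on 1442886_at, which read 6.09 and 6.42 against 7.17 and 6.73 (adjusted p = 0.108). None of the 8 tested Tra2 probe sets passed by limma. An unadjusted p under 0.05 was found in 3, or 37.5%, against 23.9% of all probe sets. Of the 3, Tra2b 1444509_at had a control mean of 4.36, below the filter level of 4.39, and a stimulated mean of 4.86. It was thus tested only through its stimulated arrays.

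No SR protein gene was called. None of 31 tested probe sets passed by limma, and 2, both of Srsf11, had an unadjusted p under 0.05. Srsf11, an SR-like protein that contacts U2AF, changed by 0.14 to 0.53 over 4 probe sets. Its probe set 1430077_at read 5.44 and 5.85 in controls and 6.36 and 5.99 in stimulated cells (0.53 ± 0.20, adjusted p = 0.181). Srsf2, an activator of many exons that stays in the nucleus, changed by 0.02 to 0.37 over 4 probe sets. Srsf4 changed by 0.20 ± 0.12 and Srsf5 by -0.22 ± 0.14. Srsf1, Srsf6, Srsf9 and Srsf10 ranged from -0.14 to 0.31. Of the 31 probe sets, 24 were above 0 and 7 below.

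Srsf3, the smallest SR protein and also a factor in export of RNA, is named after its values were seen because its stimulated arrays stood apart from each other. On 1416152_a_at it read 9.42 and 9.80 in controls, but 8.88 in stimulated 1 and 9.87 in stimulated 2. On 1416150_a_at it read 11.52 and 11.55 in controls, 11.04 in stimulated 1 and 11.85 in stimulated 2. Stimulated 1 lay below both controls and stimulated 2 above both, so the groups overlapped. On 5 of its 6 probe sets stimulated 2 exceeded stimulated 1 by over 0.5, from 0.53 to 0.99. Some of these share a source sequence. The stimulated arrays differed by over 0.5 in 8.64% of all probe sets tested and in 9 of the 125 members. On 4 of these 5 probe sets the change of Srsf3 turned from below 0 to above 0 when stimulated 1 was left out. Its mean change was -0.23 to 0.07 over the 6 probe sets.

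RefSeq promoters of GRCm38.p6, each from 250 bases before to 50 after a gene start, matched 39 of the 44 member genes, with 52 promoters. They are shown for the genes called higher on a probe set or in the count by gene, Hnrnpu and Hnrnph3, and for Clk4, the CLK gene with the largest change. Capitals mark motifs searched on both strands: the cyclic AMP response core TGACG, the CCAAT box, the E-box CACGTG, and the heat shock unit pairs GAANNTTC and TTCNNGAA. The first is chr1:178337766-178338065 (minus strand), the second chr10:63023800-63024099 (minus strand) and the third chr11:51262864-51263163 (plus strand).
Hnrnpu: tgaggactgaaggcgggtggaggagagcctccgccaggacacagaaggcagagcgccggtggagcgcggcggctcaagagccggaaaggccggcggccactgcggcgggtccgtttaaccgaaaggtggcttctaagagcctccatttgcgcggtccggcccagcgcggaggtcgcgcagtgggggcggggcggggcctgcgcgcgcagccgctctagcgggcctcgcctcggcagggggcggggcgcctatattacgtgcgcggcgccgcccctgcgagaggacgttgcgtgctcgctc
Hnrnph3: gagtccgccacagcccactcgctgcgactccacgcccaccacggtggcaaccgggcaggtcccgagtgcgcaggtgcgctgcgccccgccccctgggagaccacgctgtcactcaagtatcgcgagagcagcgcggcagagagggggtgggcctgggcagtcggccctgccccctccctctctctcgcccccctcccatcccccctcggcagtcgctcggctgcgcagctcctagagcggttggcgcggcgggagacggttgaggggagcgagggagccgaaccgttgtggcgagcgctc
Clk4: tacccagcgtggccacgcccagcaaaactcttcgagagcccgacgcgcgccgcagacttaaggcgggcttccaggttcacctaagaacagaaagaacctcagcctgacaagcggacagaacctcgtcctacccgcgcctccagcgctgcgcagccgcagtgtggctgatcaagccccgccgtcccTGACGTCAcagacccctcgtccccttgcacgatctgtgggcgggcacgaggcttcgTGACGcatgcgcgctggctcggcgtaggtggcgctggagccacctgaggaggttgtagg

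The Hnrnpu and Hnrnph3 windows held none of the 5 motifs. The Clk4 window held TGACG 3 times, counting both strands, of which 2 overlap in the palindrome TGACGTCA. TGACG was found in 27 of the 52 member promoters, or 51.9%, against 20.8% of all 32851 promoters and 29.8% of the 13447 promoters of genes tested. CCAAT was found in 48.1% of member promoters, 37.4% of all and 37.7% of those of tested genes. In the same order the shares were 9.62%, 7.15% and 9.48% for CACGTG, 15.4%, 7.86% and 5.76% for GAANNTTC, and 9.62%, 8.52% and 6.79% for TTCNNGAA. A match is a description of letters, not a binding site, and promoters of 1 gene overlap.

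The rest of the splicing machinery was given by 9 lists of 163 genes, of which 148 matched a probe set of a single symbol. The fit by gene tested 146 of them. By limma 8 of these were higher and 1 lower, or 6.16%, beside 5.53% of all genes. With any 1 array left out 0 passed. Their median change was 0.07, beside -0.01 for all genes.

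Srpk1, the cytoplasmic kinase that readies SR proteins for import, rose from 9.49 and 9.71 in controls to 10.28 and 10.48 (0.78 ± 0.15, adjusted p = 0.0419), and its other probe set changed by 0.29. It was the only call among 10 kinases and phosphatases of SR proteins. In that list Prpf4b changed by 0.45 (other probe sets -0.29 to 0.21) and Srpk2 by 0.30 (other probe sets 0.02 to 0.50). Among 13 hnRNP genes with other names, Pcbp4, a poly(C)-binding protein, rose by 0.84 ± 0.14 (adjusted p = 0.0351) and Raly, a relative of Hnrnpc, by 0.73 ± 0.13 (adjusted p = 0.0406). Ptbp3, a polypyrimidine tract binder, changed by -0.19. Among 19 SR-related proteins Rsrc2 (0.72 ± 0.12) and Rsrp1 (0.68 ± 0.13, other probe sets -0.05 and 0.50) rose. Scaf4 changed by 0.53 (adjusted p = 0.0955, other probe sets -0.16 and 0.52). In these 3 lists 0 genes fell by limma and 0 were lower at an unadjusted p under 0.05, where the shares of all genes are 1.62% and 11.7%.

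The exon junction and nonsense-mediated decay list had 2 calls among 10 genes. Smg6, the endonuclease of that decay, rose from 6.56 and 6.62 to 7.35 and 7.40 (0.78 ± 0.12, adjusted p = 0.0307). Upf2, which bridges the decay factors, rose from 7.94 and 7.93 to 8.67 and 8.75 (0.77 ± 0.12, adjusted p = 0.0317). The kinase gene Smg1 changed by 0.61 (adjusted p = 0.0974). Of 11 genes of snRNP assembly, Wdr77, a partner of the methylase that modifies Sm proteins, rose by 0.62 ± 0.12 (adjusted p = 0.0442). Gemin2 changed by 0.63 (adjusted p = 0.0555) and Strap by 0.43 (other probe sets -0.03 and 0.40). In 9 of the 10 decay genes and 9 of the 11 assembly genes the change was above 0, beside 49.1% of all genes.

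Sm and LSm proteins form the rings of the spliceosomal RNA particles. All 12 tested were below 0, with a median of -0.18, but with arrays centred on their medians 3 of the 12 (Lsm2, Snrpb and Lsm7, named for this) were above 0 and the median was -0.16. Lsm6 fell from 10.19 and 10.09 to 9.03 and 9.42 (-0.91 ± 0.17, adjusted p = 0.0406), while its other probe sets changed by -0.73 to -0.03. Lsm4 changed by -0.45 and Lsm8 by -0.37, and neither passed.

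Among all genes 13.9% were higher and 11.7% lower at an unadjusted p under 0.05. Of 20 genes of U1 and U2 recognition, 0 passed by limma, with 4 higher and 1 lower at that unadjusted threshold. Luc7l, a U1 component, changed by 0.87 (adjusted p = 0.0515, other probe sets 0.97 to 1.45). Luc7l3 changed by 0.53 (other probe sets 0.15 and 0.25) and the helicase gene Ddx46 by -0.54 (other probe sets -1.10 to -0.26). Of 35 genes of the tri-snRNP and the catalytic steps, 0 passed by limma, with 6 higher and 2 lower at an unadjusted p under 0.05. Usp39 (0.65, other probe set 0.76), Xab2 (0.37, other probe sets 0.41 and 0.57) and Bcas2 (0.36, other probe set 0.75) had the smallest p. Of 16 tissue splicing regulators 0 passed by limma, with 2 higher and 3 lower at an unadjusted p under 0.05. These included Tial1 (0.48, other probe sets -0.14 to 0.53) and Mbnl2 (-0.66, other probe sets -0.83 to -0.12). They also included the muscle regulator Rbm24 (-0.55, other probe sets -1.09 to -0.45).

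**Figure D5:**
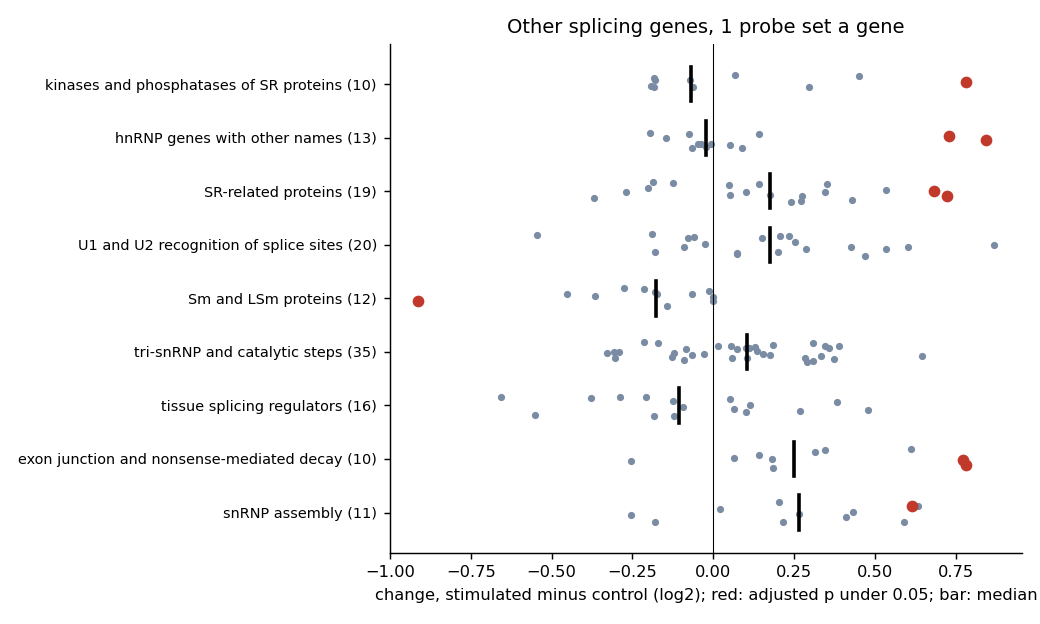
Change (stimulated minus control, log2, x axis) of 146 other splicing genes in 9 lists (y axis, number of genes tested in brackets), 1 probe set a gene. Red points passed an adjusted p of 0.05 and black bars are list medians. The 12 Sm and LSm genes lie below 0, of which 3 turn above 0 with arrays centred on their medians, and the 8 risen genes fall in 5 lists.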

How the data were processed

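Of 45101 probe sets, 64 manufacturer's controls were left out. The deposited log2 values were made by the authors with RMA, per the submitters' processing notes, a method that summarises the probes of a probe set across arrays. Its version and settings are not given in the sources used here. RMA is known to shrink changes of dim probe sets. With 2 arrays a group, precision is low.

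Symbols came from GEO's platform annotation. The gene identifiers of all 137 members were in the RefSeq table of GRCm38.p6, and 0 symbols needed updating. Probe sets whose mean over the 4 arrays reached the 40th percentile, 4.39, were tested with limma 3.58.1 in R 4.3.3 (lmFit, eBayes, two-sided, Benjamini-Hochberg, threshold 0.05). The same fit ran on 1 probe set a gene, the brightest with 1 symbol, over 13058 genes, and on within-array differences between probe sets of a gene, over 10226 pairs. Scripts were tested on simulated data. "Rose" and "fell" are used of calls only. Changes carry the standard error of the fit, in which limma draws each variance toward a value shared over all features tested.

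The members and lists were chosen with earlier results of these data known. Named are genes with a called probe set, the 4 genes with the smallest p by gene in each of the Srsf, Hnrnp and Sf3 families, all Clk and Tra2 genes, the 3 member pairs with the smallest p, and of each other list the 3 genes with the smallest p and its calls, up to 6. Other names were chosen after their values were seen. Alternatives changed the filter, centring, variance model, probe sets, block and arrays.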

Additional observations from a re-analysis of the deposited data

How the results depend on the processing

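Counts of calls were few and moved with most settings. Member probe sets called higher were 2 in the reported fit, 6 with the 60th percentile filter, 5 with a robust prior, 4 with an intensity trend and 7 with the replicate block. Those called lower were 1 in the reported fit, 2 with the 60th percentile filter, the trend or the block, and 0 with arrays centred on their medians or without a filter. Calls over the whole array moved too, from 1039 in the reported fit to 1480 with the 60th percentile filter. They were 1221 with the robust prior, 1321 with the trend, 1065 with centring and 807 without a filter. Counted by gene, 1 member was higher (2 with the mean of all probe sets or the replicate block). Also by gene, 1 was lower (0 with that mean, with centring or without a filter). Of all genes 722 were called in the reported fit, 768 with that mean and 1345 with the block. The count was 727 with centring and 643 without a filter. The other splicing lists had 8 genes higher (13 with the block) and 1 lower (0 with the mean of probe sets). Unequal pairs of members were 0, but 1 without a filter or without _x_at and _s_at probe sets, and 5 with the block. Among all pairs 7 were called in the reported fit, 38 and 13 in these 2 settings, and 269 with the block. With 1 array left out, where the lone array is assumed to vary like the other group, calls of member probe sets, member genes and list genes were all 0, and unequal pairs were 0 to 1.

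The stimulated samples are labelled experiments 1 and 2, and a protocol calls 1 control sample 2. The other control carries no number and was named 1 by its place in the list, and nothing says that a number marks a shared batch, so the replicate block rests on a pairing that the labels do not state. Deviations of same-numbered arrays correlated at 0.31 over all probe sets tested, but at 0.11 over the 125 members tested. The block raised the calls on the whole array from 1039 to 2040. With it the Hnrnpu pair of 1434390_at had adjusted p = 0.0102 and Clk4 1422886_a_at 0.0348 (limma).

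Medians with 1 array left out ranged from 0.039 to 0.11 for all members, 0.37 to 0.63 for Clk, 0.0012 to 0.076 for Hnrnp, -0.017 to 0.045 for Sf3, 0.041 to 0.12 for Srsf and 0.31 to 0.36 for Tra2. Without a filter the Sf3 median was -0.033 and the Tra2 median 0.16, and with centring the Tra2 median was 0.31.

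The alternatives were run for single probe sets of the named genes only. Among these, changes that turned sign did so only with 1 array left out, and none of them was called. Their ranges over these 4 fits were -0.078 to 0.13 for Clk2 1417743_at, -0.45 to 0.083 for Hnrnpc 1418693_at, -0.086 to 0.23 for Hnrnpdl 1424252_at, -0.020 to 0.026 for Hnrnpdl 1456698_s_at, -0.021 to 0.29 for Hnrnpr 1437526_x_at, -0.22 to 0.074 for Hnrnpu 1423050_s_at, -0.30 to 0.027 for Sf3b1 1418561_at, -0.17 to 0.028 for Sf3b2 1433461_at, -0.30 to 0.14 for Sf3b2 1453123_at, -0.13 to 0.27 for Sf3b6 1417054_a_at, -0.0089 to 0.30 for Srsf11 1427269_at, -0.081 to 0.12 for Srsf2 1427816_at, -0.50 to 0.32 for Srsf3 1416150_a_at, -0.28 to 0.42 for Srsf3 1416151_at, -0.73 to 0.26 for Srsf3 1416152_a_at, -0.33 to 0.20 for Srsf3 1434512_x_at, -0.16 to 0.25 for Srsf3 1438215_at, -0.58 to 0.19 for Srsf3 1454993_a_at, -0.22 to 0.47 for Tra2a 1455933_at, -0.16 to 0.24 for Tra2b 1441466_at. The cause of these shifts was not tested.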
